A study of Xenopus laevis with 8 samples.

Results

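The caudal-type homeobox genes cdx1, cdx2 and cdx4 and the even-skipped-type homeobox gene evx1 were followed across 4 groups of Xenopus laevis ectodermal explants. The members were taken by symbol, as the genes whose name without the copy suffix is cdx1, cdx2, cdx4 or evx1. That gave 8 of the 45035 genes of the table, a .L and a .S copy of each. The suffixes follow the chromosomes, such as 3L and 3S for cdx1, and do not state the length of a copy. All 8 passed the low-count filter that left 23130 genes for testing. Explants of 4 kinds were sequenced at the early neurula stage, with 2 libraries each. Libraries 7 and 8 came from explants expressing Chordin together with Pinhead (double explants), libraries 5 and 6 from explants expressing Flag-tagged Pinhead (Flag-Pnhd), libraries 3 and 4 from explants expressing Chordin, and libraries 1 and 2 from control explants. All explants were wild type, cut from the ectoderm and cultured in salt solution, and the stated subject of the series is how the pair of proteins induces genes of dorsal mesoderm. Dose and means of expression are not in the labels. Whether the paired libraries derive from different clutches is not stated either, so p-values here measure the spread between libraries alone, which may be technical.

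Cdx proteins are DNA-binding homeodomain regulators of the caudal family. In vertebrate embryos they are expressed at the posterior end, where Wnt and FGF signals act on them, and they act upstream of trunk hox genes. Evx1, called Xhox3 in older frog work, belongs to the even-skipped family and is expressed in posterior and ventral mesoderm and later in the tail bud. Chordin binds and blocks bone morphogenetic proteins (BMPs), signals that favour ventral mesoderm and epidermis, and Pinhead is secreted in the early frog embryo.

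Total counts per library lay between 15052017 and 19677493. Levels are given as CPM, counts per 1000000 after scaling between libraries by trimmed mean of M values (TMM), and 1 CPM stood for 14.5 to 19 counts. The expressed proteins were seen where the labels place them: chrd.S, a chordin copy, had 793 to 934 CPM in the 4 libraries labelled with Chordin and 0.483 to 1.17 CPM in the others, and pnhd.L, a pinhead copy, had 429 and 486 CPM in double explants, 1254 and 739 CPM in Pinhead explants and 0.328 to 2.89 CPM in the others. The 24 epidermal marker genes, among them the hyaluronan synthase gene has1, summed to 15617 and 15585 CPM in control explants and 14037 and 13778 CPM in Pinhead explants. They summed to 4172 and 4299 CPM in Chordin explants and 3986 and 2329 CPM in double explants. In each control and each double library 1 of them was at 0 counts, so that number does not tell these groups apart. Libraries 7 and 8 stood apart from each other more than the other pairs did. The SD over tested genes of the difference in log2 CPM between the libraries of a group was 0.696 for 8 and 7, 0.448 for 6 and 5, 0.4 for 4 and 3 and 0.399 for 2 and 1.

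Pinhead alone raised all 8 members over control, with no overlap between the libraries of the 2 groups. Calls are by edgeR's quasi-likelihood test at a p under 0.05 after Benjamini-Hochberg adjustment, and over all genes tested 6.75% were called higher and 28.6% were higher without overlap. For each member both Pinhead libraries also stood above the other 6 libraries, as they did for 10.9% of all tested genes. The members' median log2 fold change was 6.11, against -0.01 over all genes tested. Since cdx1.L, evx1.L and evx1.S reached 10 counts in more than 1 library in the Pinhead group alone, their passing the filter fixed part of this. In bulk RNA, more cells of a type and more RNA per cell cannot be told apart.

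Both cdx4 copies rose with Pinhead. The level of cdx4.L, a caudal gene of the posterior neural plate and mesoderm in frogs, was 115 and 134 CPM in Pinhead explants, against 1.45 and 0.525 CPM in control explants. The level of cdx4.S was 120 and 115 CPM in Pinhead explants, against 2.84 and 0.656 CPM in control explants. For both copies the lowest Pinhead library stood far above the highest control library. The log2 fold changes were 6.94 ± 0.72 for cdx4.L and 6.04 ± 0.67 for cdx4.S (SE, n = 2 a group; edgeR adjusted p = 0.000575 and 0.000887).

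Of the cdx1 copies, cdx1.S carried nearly all counts with Pinhead. The level of cdx1.S was 102 and 137 CPM in Pinhead explants, against 1.87 and 0.59 CPM in control explants, a log2 fold change of 6.57 ± 0.62 (adjusted p = 0.000348 by edgeR). The .L copy was scarce: cdx1.L had 36 and 46 counts with Pinhead, or 1.9 and 3.16 CPM. In control it had 5 and 1 counts, or 0.302 and 0.0656 CPM. Its log2 fold change was 3.69 ± 0.86 (adjusted p = 0.0268 by edgeR).

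Both cdx2 copies rose with Pinhead, and cdx2.L was already counted 640 and 387 times in the control libraries. In mammals this gene is known for the trophectoderm and the intestine as well as for the tail end of the embryo. The level of cdx2.L was 250 and 296 CPM in Pinhead explants, against 38.6 and 25.4 CPM in control explants. The level of cdx2.S was 137 and 191 CPM in Pinhead explants, against 3.86 and 0.525 CPM in control explants. The copies thus had log2 fold changes of 3.09 ± 0.46 (cdx2.L, adjusted p = 0.00415 by edgeR) and 6.19 ± 0.65 (cdx2.S, adjusted p = 0.000662).

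The evx1 copies were almost silent outside the Pinhead libraries. The level of evx1.L was 17.9 and 21.4 CPM in Pinhead explants, against 0.241 and 0.394 CPM in control explants, a log2 fold change of 5.93 ± 0.44 (adjusted p = 8.78e-05 by edgeR). The copy evx1.S had 195 and 200 counts with Pinhead, or 10.3 and 13.8 CPM, against 0 and 2 counts in control. The ratio of its group levels was 188, with a 95% counting interval of 51.6 to 1554 that covers counting error only (adjusted p = 0.000234 by edgeR).

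The 2 control libraries did not hold the same cdx levels, and the folds over control moved with them. Every cdx copy was higher in library 1 than in library 2, by 1.52 times for cdx2.L and 2.76 to 7.36 times for the others. Without library 1 the log2 fold changes with Pinhead were 5.11 for cdx1.L, 7.65 for cdx1.S, 8.27 for cdx2.S, 7.87 for cdx4.L and 7.48 for cdx4.S, and without library 2 they were 3.03 for cdx1.L, 5.99 for cdx1.S, 5.41 for cdx2.S, 6.42 for cdx4.L and 5.37 for cdx4.S. The call of cdx1.L was lost without any 1 of libraries 1 to 6 (edgeR adjusted p = 0.0665 to 0.189), and that of cdx2.L without library 2 (edgeR adjusted p = 0.0737). The other 6 members were called higher under all 16 alternatives.

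**Figure D1:**
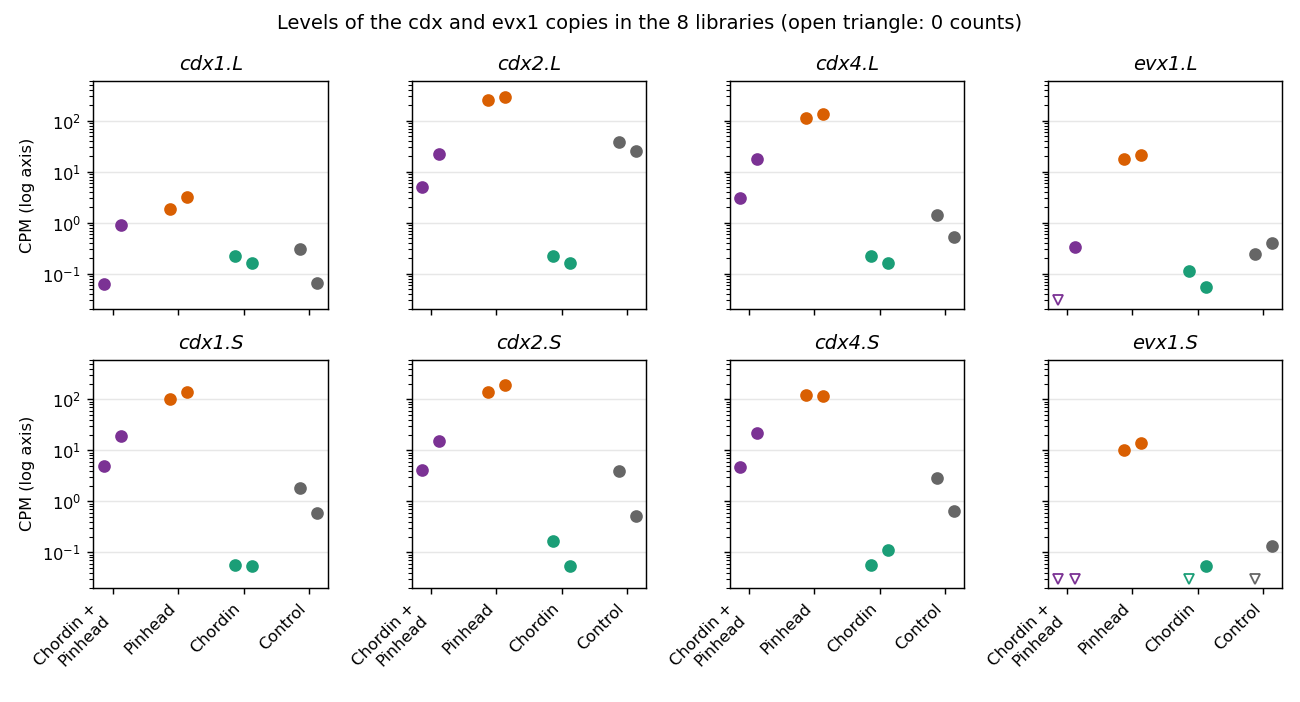
Level of each cdx and evx1 copy in CPM (log axis) in the 8 libraries, by group; each point is 1 library and an open triangle marks 0 counts. All 8 copies are highest in the Pinhead libraries, and with Chordin no copy exceeds 0.221 CPM.

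With Chordin alone no cdx copy had more than 4 counts in a library. Over control it lowered 2 of the 8 members, cdx2.L and cdx2.S, in a comparison where 32% of all tested genes were called lower and 42.3% were lower without overlap, and it raised none (2 of the others had an unadjusted p under 0.05, and DESeq2 and limma voom raised none either). The level of cdx2.L was 0.221 and 0.164 CPM in Chordin explants (4 and 3 counts), against 38.6 and 25.4 CPM in control explants, a 160-fold fall with a log2 fold change of -7.33 ± 0.86 (adjusted p = 6.68e-05 by edgeR). The level of cdx2.S was 0.166 and 0.0546 CPM in Chordin explants, against 3.86 and 0.525 CPM in control explants, a log2 fold change of -4.26 ± 1.58 (adjusted p = 0.0389 by edgeR). The libraries with Chordin lay below both control libraries in each case.

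The other cdx copies also had few counts with Chordin, but were not called. The level of cdx1.S was 0.0554 and 0.0546 CPM in Chordin explants, against 1.87 and 0.59 CPM in control explants. The level of cdx4.S was 0.0554 and 0.109 CPM in Chordin explants, against 2.84 and 0.656 CPM in control explants. Neither difference was called (edgeR adjusted p = 0.0632 and 0.0565), nor was that of cdx4.L, with 0.221 and 0.164 CPM in Chordin explants against 1.45 and 0.525 CPM in control explants (edgeR adjusted p = 0.243). For cdx1.L and the evx1 copies both groups held at most 6 counts a library, and no difference was called (edgeR adjusted p = 0.985 for cdx1.L, 0.142 for evx1.L and 0.607 for evx1.S).

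The number of members called lower by Chordin rested on single libraries. It was 5 without library 7 or 8, when cdx1.S, cdx4.L and cdx4.S were also called, 4 without library 2, and 1 without any 1 of libraries 1 and 3 to 6. The fall of cdx2.L was called under all 16 alternatives. That of cdx2.S was called under 8 of 15, and its log2 fold change was -2.17 without library 1, -5.04 without library 2, -5.16 without library 3 and -3.67 without library 4.

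With both proteins together, the cdx copies were far below their Pinhead-alone levels and the evx1 copies were at or near 0. All 8 members were lower with both than with Pinhead alone, in a comparison where 31% of all tested genes were called lower and 39.8% were lower without overlap. Since cdx1.L, evx1.L and evx1.S passed the low-count filter through the Pinhead group, part of these falls was fixed in advance. Pinhead RNA was lower with both proteins too: pnhd.L had 429 and 486 CPM in double explants and 1254 and 739 CPM in Pinhead explants. The part of this in the falls was not tested. The median log2 fold change of the members was -3.81, against 0.03 over all genes tested. The level of cdx4.L was 2.99 and 17.5 CPM in double explants, against 115 and 134 CPM in Pinhead explants, a 12-fold fall with a log2 fold change of -3.58 ± 0.53 (adjusted p = 0.000307 by edgeR). The largest fall among the cdx copies was that of cdx2.L, with 5.11 and 22 CPM in double explants against 250 and 296 CPM in Pinhead explants (log2 fold change -4.32 ± 0.50, adjusted p = 6.6e-05 by edgeR).

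The remaining cdx copies fell by 2.33 to 4.05 on the log2 scale, and no library with both proteins reached a Pinhead library. The level of cdx1.S was 4.98 and 19.5 CPM in double explants, against 102 and 137 CPM in Pinhead explants. That of cdx2.S was 4.17 and 15.4 CPM in double explants, against 137 and 191 CPM in Pinhead explants. That of cdx4.S was 4.67 and 21.8 CPM in double explants, against 120 and 115 CPM in Pinhead explants. The scarce cdx1.L had 0.0623 and 0.895 CPM in double explants, against 1.9 and 3.16 CPM in Pinhead explants, and its call was lost without library 6 and with only the groups compared (edgeR adjusted p = 0.114 and 0.0551). Leaving out library 7 made the falls smaller and leaving out library 8 made them larger: cdx4.L then had -2.86 and -5.35, cdx2.L -3.66 and -5.71, cdx1.S -2.64 and -4.56, cdx2.S -3.44 and -5.27, cdx4.S -2.46 and -4.63 and cdx1.L -1.50 and -5.15, all called.

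The evx1 copies fell further. The level of evx1.L was 0 and 0.336 CPM in double explants (0 and 6 counts), against 17.9 and 21.4 CPM in Pinhead explants, a 107-fold fall (log2 fold change -6.74 ± 0.48, or -5.86 without library 7; adjusted p = 3.81e-06 by edgeR). The copy evx1.S had no counts in either double library, which allows up to 0.187 and 0.168 CPM, against 10.3 and 13.8 CPM in Pinhead explants. Against a floor of 3 counts over the group it was at least 133-fold lower (adjusted p = 1.01e-05 by edgeR).

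As a share of the mean Pinhead-alone level, 1.87% to 4.17% of a cdx copy was left in library 7. In library 8 the share was 8.06% to 18.5% for the cdx copies other than cdx1.L. The scarce cdx1.L stood at 35.4% there, from 16 counts. In library 7 it stood at 2.46%, from 1 count, where 3 counts would be 7.38%. For evx1.L the share was 0% in library 7, where 3 counts would be 0.952%, and 1.71% in library 8. For evx1.S it was 0% in both, where 3 counts would be 1.55% and 1.4%. Within the members' own counts, evx1 made up 0% of 353 counts in library 7 (upper limit of the exact binomial 95% interval 1.04%) and 0.345% in library 8 (0.127% to 0.749%). In the Pinhead libraries it made up 3.73% and 3.86% (3.43% to 4.06% and 3.54% to 4.2%). The intervals of these groups did not overlap, and they cover counting error only. The share was 10.5% and 13.3% in the Chordin libraries, from 2 evx1 counts each (intervals 1.3% to 33.1% and 1.66% to 40.5%). In control it was 0.491% in library 1 and 1.86% in library 2 (0.134% to 1.25% and 0.805% to 3.62%). The interval of library 1 overlapped those of both double libraries. That of library 2 overlapped the intervals of library 7 and of both Pinhead libraries, but not that of library 8.

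**Figure D2:**
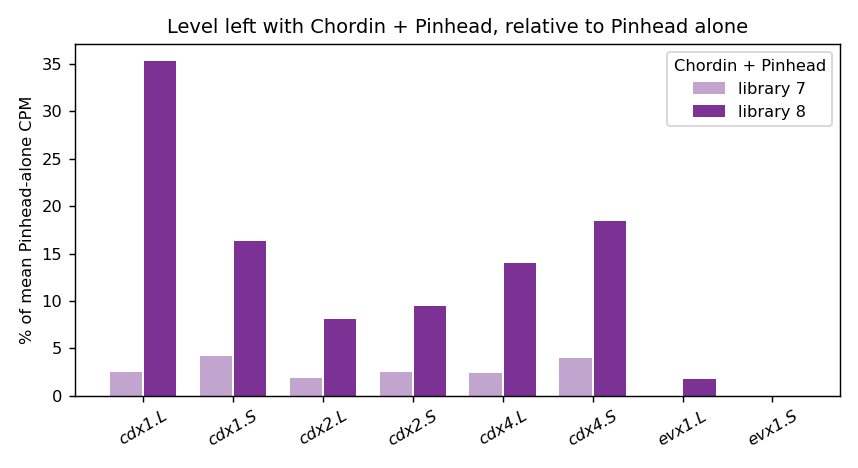
Level of each copy with Chordin and Pinhead together, as a percentage of its mean CPM in Pinhead explants alone, for library 7 (light) and library 8 (dark). Library 8 keeps 8.06% to 18.5% of the cdx levels other than that of the scarce cdx1.L (35.4%, from 16 counts). Library 7 keeps 1.87% to 4.17%, while evx1.S is at 0 in both.

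Added to Chordin, Pinhead still raised 5 of the 6 cdx copies, and neither evx1 copy was called, by edgeR, while limma voom called 0 of the 8. Over all genes tested 6.46% were called higher in this comparison and 28% were higher without overlap. The median log2 fold change of the 6 cdx copies was 6.25, against 0.01 over all genes. The level of cdx2.L was 5.11 and 22 CPM in double explants, against 0.221 and 0.164 CPM in Chordin explants (log2 fold change 6.1 ± 0.93, adjusted p = 0.00345 by edgeR). The level of cdx4.L was 2.99 and 17.5 CPM in double explants, against 0.221 and 0.164 CPM in Chordin explants (log2 fold change 5.70 ± 1.05, adjusted p = 0.00894). For each of the 5, both libraries with both proteins lay above both Chordin libraries.

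The .S copies of the cdx genes rose as well. The counts of cdx1.S were 80 and 349 with both, against 1 and 1 with Chordin, a ratio of levels of 230 with a 95% counting interval of 63.3 to 1905 (adjusted p = 0.00308 by edgeR). The counts of cdx4.S were 75 and 389 with both, against 1 and 2 with Chordin, a ratio of 166 with an interval of 56.4 to 807 (adjusted p = 0.00505 by edgeR). The level of cdx2.S was 4.17 and 15.4 CPM in double explants, against 0.166 and 0.0546 CPM in Chordin explants (log2 fold change 6.40 ± 1.18, adjusted p = 0.00887 by edgeR).

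The members not called were the scarce ones. The counts of cdx1.L were 1 and 16 with both, against 4 and 3 with Chordin (adjusted p = 0.475 by edgeR). Those of evx1.L were 0 and 6 with both, against 2 and 1 with Chordin, a ratio of 2.14 (95% counting interval 0.458 to 13.2) (adjusted p = 0.641 by edgeR). Those of evx1.S were 0 and 0 with both, against 0 and 1 with Chordin. All 5 calls of the cdx copies were lost under limma voom (adjusted p = 0.0859 to 0.11) and when library 3 or 4 was left out (edgeR adjusted p = 0.0581 to 0.12), with log2 fold changes of 5.47 to 7.70 that kept their direction. Without library 8 the log2 fold changes were 6.33 for cdx1.S, 4.69 for cdx2.L, 5.16 for cdx2.S, 3.91 for cdx4.L and 5.71 for cdx4.S, all called, and without library 7 they were 8.25, 6.74, 7, 6.41 and 7.88. For cdx1.S and cdx4.S these are fitted values that depend on the prior count, since Chordin explants held 3 counts or fewer.

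**Figure D3:**
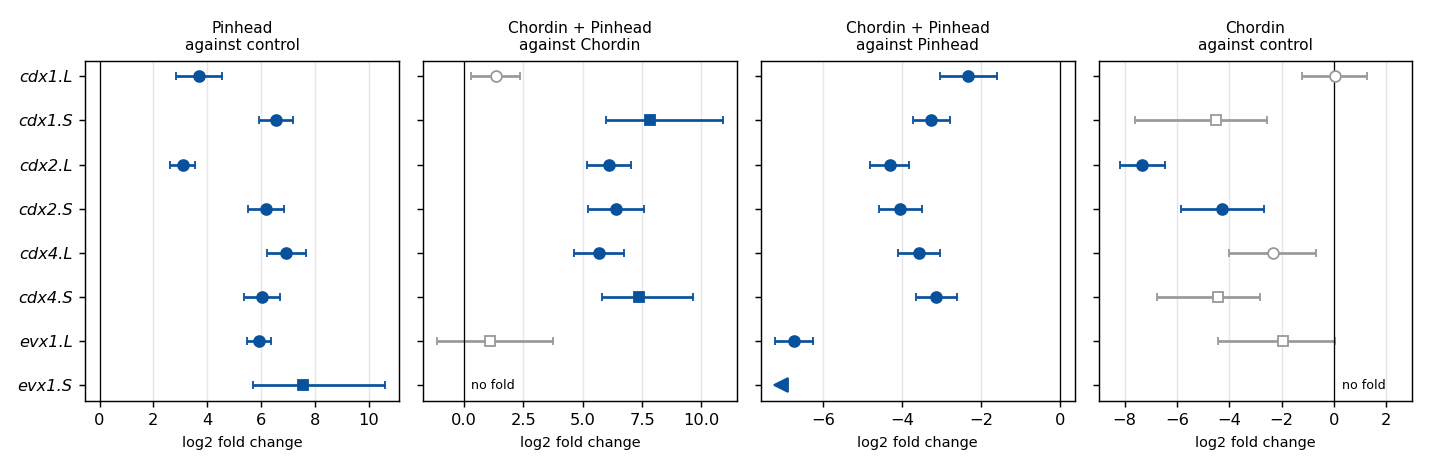
Log2 fold changes of the 8 copies in 4 comparisons. Circles are fitted values with their SE, squares are ratios of group levels with 95% counting intervals, the triangle is a bound against 3 counts, filled symbols were called at an adjusted p under 0.05, and "no fold" marks groups with 3 counts or fewer in both. All 8 rise with Pinhead alone and fall when Chordin is added to it, while 5 cdx copies rise and no evx1 copy is called when Pinhead is added to Chordin.

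Set against control, explants with both proteins held more of 4 cdx copies and less of cdx2.L. Of all tested genes 33.3% were called higher and 32.1% lower. The log2 fold changes over control were 3.36 ± 0.80 for cdx4.L, 3.30 ± 0.68 for cdx1.S, 2.90 ± 0.71 for cdx4.S and 2.14 ± 0.70 for cdx2.S (edgeR adjusted p = 0.00481, 0.00211, 0.00569 and 0.023). For cdx2.L the level was 5.11 and 22 CPM in double explants, against 38.6 and 25.4 CPM in control explants, a log2 fold change of -1.23 ± 0.47 (adjusted p = 0.0445 by edgeR). Neither evx1 copy nor cdx1.L was called, although cdx1.L was without library 7 and evx1.L, lower, without library 8 (edgeR adjusted p = 0.0234 and 0.0167).

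These changes leaned on libraries 1, 2, 7 and 8. Without library 8 the 4 rises were 1.60 for cdx4.L, 2.01 for cdx1.S, 1.41 for cdx4.S and 0.92 for cdx2.S, the last no longer called (edgeR adjusted p = 0.12). Without library 7 they were 4.09, 3.93, 3.58 and 2.75, without library 1 they were 4.29, 4.38, 4.34 and 4.22, and without library 2 they were 2.83, 2.72, 2.23 and 1.36. Without library 2 the calls of cdx4.S and cdx2.S were lost (edgeR adjusted p = 0.0503 and 0.132). The fall of cdx2.L was called without library 7 or 8, at -0.57 and -2.62, and lost without any 1 of the others (edgeR adjusted p = 0.0599 to 0.242). It was also lost with DESeq2 (adjusted p = 0.163), with total-count scaling, run 1 alone and only the groups compared (edgeR adjusted p = 0.0675, 0.081 and 0.136). The rise of cdx2.S was lost with DESeq2 (adjusted p = 0.112) and with only the groups compared (edgeR adjusted p = 0.103) as well.

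The order of the 4 groups can be read from these tests. For cdx1.S, cdx2.S, cdx4.L and cdx4.S the level was highest with Pinhead, then with both proteins, then in control and lowest with Chordin. In that order the steps from Pinhead to both and from both to control were called for all 4, and the step from control to Chordin for cdx2.S alone. The step from both to control was called in 12 of 16 alternatives for cdx2.S, 15 for cdx4.S and 16 for cdx1.S and cdx4.L. For cdx2.L control stood above both proteins, and all 3 steps of its order were called, that from control to both proteins in only 6 of 16 alternatives. For evx1.L and evx1.S only the step down from Pinhead was called. Among the other 3 groups no difference was called, at no more than 6 counts a library, too few to order them. For evx1.L both Chordin libraries (0.111 and 0.0546 CPM, 2 and 1 counts) lay below both control libraries (0.241 and 0.394 CPM, 4 and 6 counts). The same held for 42.3% of all tested genes. Pinhead stood above Chordin for all 8 members, in a comparison where 31.2% of all tested genes were called higher. For cdx1.L, evx1.L and evx1.S, passing the low-count filter through the Pinhead group fixed part of this.

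Whether the effect of Pinhead depended on Chordin was asked by the interaction on the log2 scale. edgeR called it for 0 of the 8 members, with 3 at an unadjusted p under 0.05, whereas DESeq2 and limma voom each called 2, evx1.L and evx1.S. Over all genes edgeR called 11%. For cdx2.L the fitted term, the Pinhead effect on top of Chordin minus that without it, was 3.01 ± 1.27 and not called (adjusted p = 0.156 by edgeR). It was 1.59 without library 8 and 3.65 without library 7, and it was called in 2 of 15 alternatives, without library 7 and without the low-count filter. For cdx4.L the difference was -1.24 ± 2.22 (adjusted p = 0.755 by edgeR), and for cdx2.S it was 0.22 ± 1.68 (adjusted p = 0.954). The evx1 terms were negative (edgeR adjusted p = 0.0926 for evx1.L and 0.107 for evx1.S), and no size is given for them because a group held 3 counts or fewer. Both evx1 copies passed the low-count filter through the Pinhead group, whose level enters this term with a negative sign. Part of their negative terms was thus fixed in advance, and their calls by other tools carry the same limit.

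In the double and control explants the libraries of a group differed in the cdx copies more than in most genes. In explants with both proteins, library 8 exceeded library 7 in every cdx copy, by 3.7 to 5.84 times in 5 of them and by 14.4 times in the scarce cdx1.L. Of all tested genes, 0.0735% to 0.389% were as much higher in library 8 as the cdx copies were. In control, library 1 exceeded library 2 in every cdx copy, and 0.013% of tested genes fell as far in library 2 as cdx2.S, against 4.89% for cdx2.L. The Pinhead libraries lay within 1.39 times of each other for every member except cdx1.L (1.67 times). In Chordin explants the cdx copies had at most 4 counts a library, too few to compare the libraries.

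Other transcripts moved with the difference between libraries 8 and 7. The summed level of 30 hox genes of paralog groups 5 to 9 was 94.3 CPM in library 8, against 27 CPM in library 7, that of 19 notochord markers 266 and 121 CPM, that of 22 muscle markers 119 and 59.8 CPM, and that of 24 epidermal markers 2329 and 3986 CPM. Neural markers and the expressed genes differed less: 25 pan-neural markers summed to 4111 and 3899 CPM, pnhd.L stood at 486 and 429 CPM and chrd.S at 934 and 793 CPM. In control, pnhd.L was 1.21 CPM in library 1, against 0.328 CPM in library 2, and the Wnt ligand gene wnt8a.L was 1.33 and 0.394 CPM. The gene wnt8a.L was named for its likeness to cdx2.S over these same libraries, which fixes part of its difference. In the same order, the hox genes of groups 5 to 9 summed to 8.15 and 8.07 CPM in control. The epidermal markers summed to 15617 and 15585 CPM. The part of these in the cdx differences was not tested.

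**Figure D4:**
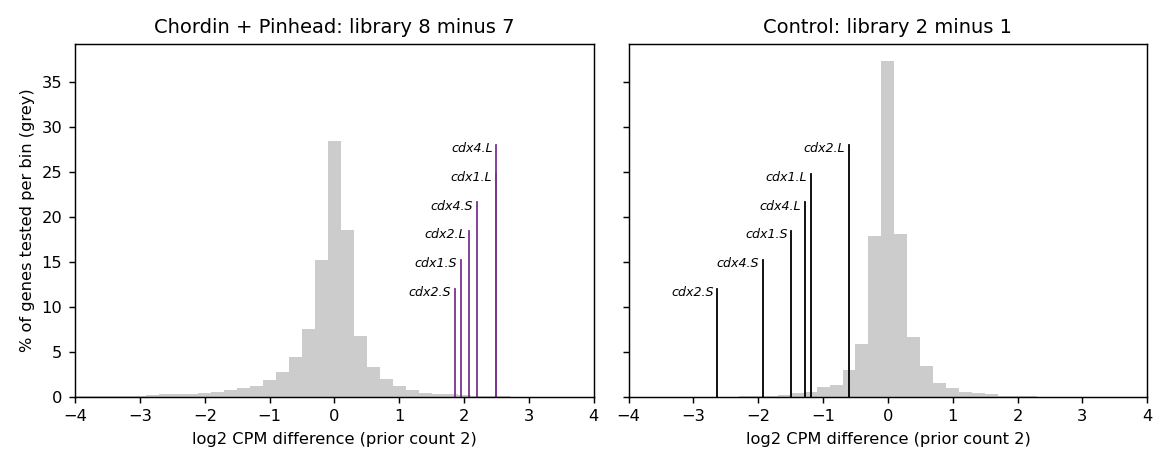
Difference in log2 CPM between the libraries of a group, for all 23130 tested genes (grey, percent of genes per bin of 0.2) and the 6 cdx copies (lines, whose heights carry no value). In explants with both proteins all 6 lie at the high end of library 8 over 7, and in control all 6 lie below 0 for library 2 over 1.

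The balance between the cdx2 copies differed between groups. The .L copy held 55% and 58.7% of the cdx2 counts with both proteins and 64.5% and 60.8% with Pinhead, against 90.9% and 98% in control. The exact binomial 95% intervals were 63.4% to 65.6% and 59.6% to 61.9% with Pinhead, against 88.5% to 92.9% and 96% to 99.1% in control. The groups did not overlap, but an exact two-sided permutation test of 2 against 2 libraries cannot go below p = 0.333, which is what it gave. For cdx4 the share of .L was 48.8% and 53.7% with Pinhead, against 33.8% and 44.4% in control, and cdx1.L held 1.82% and 2.26% of cdx1 counts with Pinhead. These are shares of counts: transcript lengths were not used here, and counting may assign reads of a near-identical copy to its partner, which makes single-copy values uncertain.

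Genes with the most similar pattern over the 8 libraries were sought by Pearson correlation of log2 CPM. The 5 most similar genes of each cdx copy made 30 entries, of which 9 named other members and 13 named hox genes, at r = 0.947 to 0.998. A gene can fill several entries: hoxb3.L was listed for cdx1.S, cdx2.S, cdx4.L and cdx4.S. Nearest to cdx4.L were hoxb6.S (0.994) and hoxa10.S (0.994), nearest to cdx1.S were cdx4.S (0.998) and hoxa7.L (0.993), and nearest to cdx2.S was hoxb3.L (0.998). The pattern of cdx2.L was nearest to that of pygm.S (0.992), a glycogen phosphorylase gene. For the evx1 copies 0 of 10 entries were members or hox genes: evx1.L was nearest to a gene without a descriptive symbol (0.984), to msgn1.L (0.983), a regulator of presomitic mesoderm, and to the ventral homeobox gene ventx3.2.L (0.982), and evx1.S was nearest to ventx3.2.L (0.995). The points are 4 groups of 2 libraries, so these values mostly state that the groups rank alike.

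Many hox genes, which cdx proteins are known to regulate, rose with Pinhead and were lower with both proteins. The table holds 26 genes of paralog groups 1 to 4, 30 of groups 5 to 9 and 20 of groups 10 to 13, of which 16, 23 and 15 were tested. With Pinhead over control 10, 22 and 10 of these rose and none fell, but some passed the low-count filter through the Pinhead libraries alone, which fixes part of these counts. Over all tested genes 6.75% were called higher there. Among the hox genes that rose, hoxa7.L was 27.7 and 31.5 CPM in Pinhead explants, against 0.543 and 0.459 CPM in control explants (log2 fold change 5.86 ± 0.44, adjusted p = 0.000191 by edgeR). When Pinhead was added to Chordin, 11, 19 and 6 of these rose and none fell, in a comparison where 6.46% of all tested genes were called higher. These hox counts are from edgeR with all 8 libraries, and the alternatives were not counted for them. In that comparison the calls of the cdx copies were lost under limma voom. The level of hoxb7.L was 3.11 and 6.66 CPM in double explants, against 13.8 and 17.2 CPM in Pinhead explants, and it had no counts in control or with Chordin. With both against Pinhead, 12 of 16, 16 of 23 and 9 of 15 tested hox genes were called lower, in the same order of paralog groups. All 8 members were called lower there, as were 31% of all tested genes. Passing the filter through the Pinhead libraries fixed part of these counts too, and no test compared the hox genes with the members.

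Most tested regulators of tailbud and early mesoderm, such as the T-box genes brachyury (t) and vegt, were lower with both proteins than with Pinhead alone. Of 18 such genes listed, 11 were tested, and of these 10 rose with Pinhead over control, 10 fell and 1 rose with both against Pinhead, and 2 rose when Pinhead was added to Chordin. Some passed the low-count filter through the Pinhead libraries alone, which fixes part of these counts. Over all tested genes 6.75% were called higher with Pinhead over control, 31% lower with both against Pinhead and 6.46% higher with both against Chordin. The brachyury copy t.L had 0.0623 and 0.112 CPM in double explants and 50.5 and 70.2 CPM in Pinhead explants, against 0.0603 and 0 CPM in control explants. The copy t.S had 0.997 and 4.14 CPM in double explants and 42.8 and 72 CPM in Pinhead explants, against 0.543 and 0.787 CPM in control explants. In counts t.S was at 16 in library 7 and 74 in library 8, against 9 and 12 in control, so library 7 lay close to control. The copy t.L was at 1 and 2 counts in double explants. The level of vegt.S was 0.187 and 0.448 CPM in double explants and 36.4 and 48.2 CPM in Pinhead explants, against 0.543 and 0.459 CPM in control explants. The summed level of the 18 genes was 3.68 and 14.3 CPM in double explants and 189 and 273 CPM in Pinhead explants, against 3.56 and 3.08 CPM in control explants. No test compared these lists with the members.

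Signalling genes of the Wnt and FGF pathways, which act on cdx genes in vertebrate embryos, also included genes that rose with Pinhead, with Chordin and with both proteins. Of 29 tested Wnt ligands and targets 17 rose and none fell with Pinhead over control, and 12 rose and 5 fell with Chordin over control. With both against Pinhead 11 rose and 10 fell, in a comparison where 7102 of the 23130 tested genes were called higher and 7165 lower. Over all tested genes 6.75% were called higher with Pinhead over control and 32% lower with Chordin over control. The share called higher with Chordin over control is not given here, so the rises with Chordin have no such share beside them. The Wnt target sp5l.L, a zinc-finger factor gene, had 44.4 and 60.2 CPM in double explants and 35.9 and 39.5 CPM in Pinhead explants, 5.26 and 6.77 CPM in Chordin explants, against 0.785 and 0.853 CPM in control explants. The Wnt feedback gene axin2.L had 9.47 and 14.2 CPM in double explants and 10.5 and 12.8 CPM in Pinhead explants, 3.43 and 5.08 CPM in Chordin explants, against 0.724 and 0.59 CPM in control explants. Of 30 FGF ligands, receptors and targets 19 rose and 2 fell with Pinhead over control and 23 rose and 3 fell with Chordin over control. The FGF target flrt3.S had 26.5 and 30.4 CPM in double explants and 29.7 and 23.8 CPM in Pinhead explants, 9.47 and 7.76 CPM in Chordin explants, against 0.664 and 0.787 CPM in control explants. For sp5l.L both double libraries stood above both Pinhead libraries, and for axin2.L and flrt3.S the libraries of these groups overlapped. The Wnt ligand gene wnt8a.L went the other way, with 1.56 and 1.9 CPM in double explants against 15.3 and 19.7 CPM in Pinhead explants. It was named for its likeness to cdx2.S over these libraries, which fixes part of this fall. Of the 30 FGF genes 17 rose and 2 fell with both against Pinhead.

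BMP ligands and ventral targets had another pattern. Of 29 tested, 7 rose and 7 fell with Pinhead over control, whereas 24 fell and 3 rose with Chordin over control and 25 fell and 3 rose with both against Pinhead. Over all tested genes 32% were called lower with Chordin over control and 31% with both against Pinhead. The ventral homeobox gene ventx3.2.L had no counts in double explants and 19.8 and 24.9 CPM in Pinhead explants, against 0.0603 and 0.131 CPM in control explants. It passed the low-count filter through the Pinhead libraries alone, which fixes part of this. In the same list id4.S went the other way, with 27.6 and 35.3 CPM in Pinhead explants against 77.4 and 85.9 CPM in control explants. So did bmp7.2.L, with 64 and 72.4 CPM in Pinhead explants against 149 and 127 CPM in control explants. Of 13 genes of retinoic acid handling 6 rose and none fell with Pinhead over control, among them cyp26a1.S, a retinoic acid hydroxylase gene, with 29.3 and 52.6 CPM in Pinhead explants against 1.99 and 1.44 CPM in control explants. Of 3 tested posterior homeobox genes outside these families, meis3.S was lower with Pinhead: its level was 67.2 and 72 CPM in Pinhead explants, against 94.7 and 95.5 CPM in control explants (log2 fold change -0.45 ± 0.09, adjusted p = 0.0134 by edgeR).

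**Figure D5:**
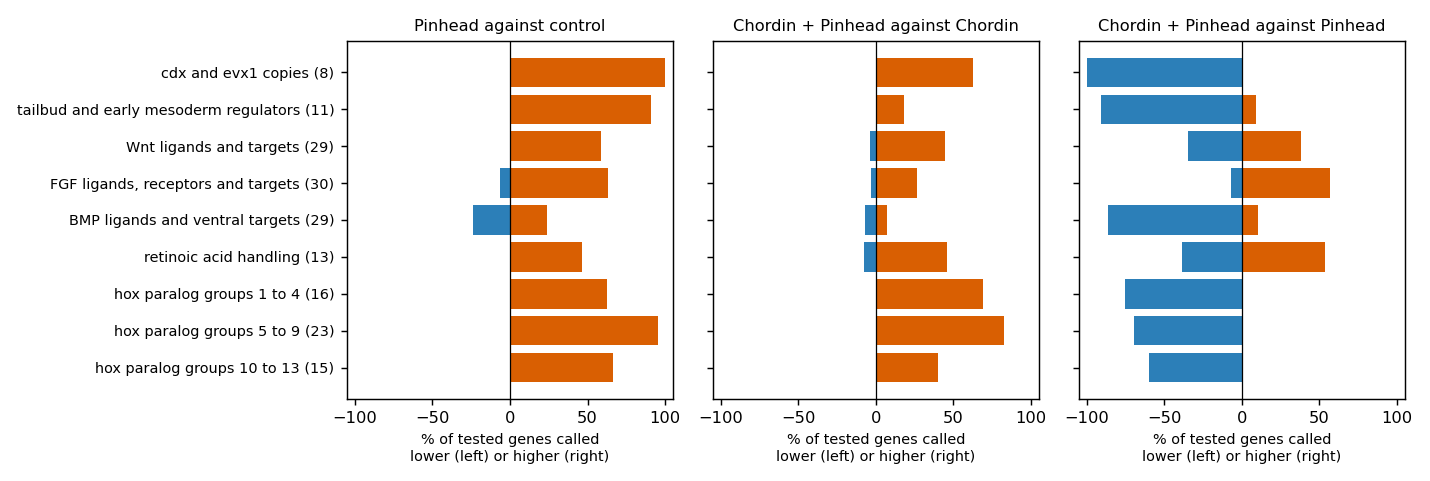
Percentage of tested genes called higher (orange, right of 0) or lower (blue, left of 0) in the 8 members and 8 gene lists, for 3 comparisons; the number tested stands in parentheses. All members rise with Pinhead, as do 22 of 23 hox genes of groups 5 to 9. With both against Pinhead all members fall, while of the Wnt list 11 rise and 10 fall. Of all 23130 tested genes 7102 were called higher and 7165 lower in that comparison.

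Markers of other tissues did not all move with the members. With Pinhead, 16 tested endoderm and gut markers, a territory where cdx genes are also used, held 1 higher and 4 lower against control, and the sum over all 28 such markers in the table was 147 and 175 CPM in Pinhead explants, against 215 and 208 CPM in control explants. The sum over 19 notochord markers was 4.64 and 5.92 CPM in Pinhead explants, against 5.07 and 5.51 CPM in control explants. Muscle markers summed to 27.7 and 30.6 CPM in Pinhead explants, against 24.3 and 26 CPM in control explants, with 3 higher and 2 lower of 16. Epidermal markers summed to 14037 and 13778 CPM in Pinhead explants, against 15617 and 15585 CPM in control explants, with 1 of 23 lower. With both proteins, 25 of 25 pan-neural and 17 of 17 notochord markers were higher than with Pinhead alone and 22 of 23 epidermal markers were lower. Of all 23130 tested genes 7102 were called higher and 7165 lower in that comparison. Some neural and notochord markers had 3 counts or fewer in both the Pinhead and the control group. They passed the low-count filter through libraries with Chordin, alone or with Pinhead, which fixes part of these rises. The part of these tissues in the cdx and evx1 changes was not tested.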

How the data were processed

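RNA from 8 explant libraries (4 groups of 2) was extracted with an RNeasy kit and read as 150-base paired ends, per the labels. Reads were aligned with HISAT2, per the submitters' processing notes; neither its version nor the counter, build or annotation is given in the sources used here. The table deposited by the authors holds raw counts per gene, as whole numbers with a different total in each of its 16 columns, 2 runs for each library, and 1 line was not analysed here. Runs were summed: their mean chi-square per gene of 20 or more counts was 1.39 to 1.53 for runs of one library and 3.19 to 12.8 for the libraries of one group.

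Counts were analysed in R 4.3.3 with edgeR 4.0.16: TMM scaling, filterByExpr (minimum 10 counts, 15 in total) and 1 quasi-likelihood fit with a coefficient per group over all 8 libraries (4 residual degrees of freedom), giving 7 comparisons with two-sided p-values adjusted over all tested genes. Standard errors came from the F statistic. A fold against no counts is a bound at 3 counts over the group, and one against 1 to 3 counts is a ratio with a 95% interval. Correlations used log2 CPM (prior count 2) of genes with an SD of at least 1. The alternatives used DESeq2 1.42.0, limma 3.58.1 (voom), other scalings and filters, fewer libraries and single runs. The code was tested on simulated data. Figures used Python 3.11.15 and matplotlib 3.10.9.

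The members and lists were chosen with earlier results of these data known. All members, the 5 genes most like each and up to 3 genes per list with the smallest adjusted p for Pinhead against control could be named.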

Additional observations from a re-analysis of the deposited data

How the results depend on the processing

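No paired analysis was possible because the libraries are numbered 1 to 8 with no number shared between groups. Leaving out 1 library assumes that the lone library of its group varies like the others. Of 8 members, the number called with Pinhead against control was 6 to 8 without single libraries, with both against Pinhead 7 to 8 (7 with only the groups compared), and with Pinhead against Chordin 8 under every alternative run. With Chordin against control it was 2, and 5 without the low-count filter, 4 with DESeq2, 1 with limma voom and 1 to 5 without single libraries. With both against control it was 5, and 3 with DESeq2 or with only the groups compared, and 2 to 6 without single libraries. With both against Chordin it was 5, and 0 with limma voom and 0 to 5 without single libraries. For the interaction it was 0, and 3 without the filter, 2 with DESeq2 or limma voom and 0 to 3 without single libraries. Every change of direction was in a member that was not called in that comparison. With Chordin against control, cdx1.L (0.03 on the log2 scale) was -0.88 with run 1 alone and -0.63 to 1.46 without single libraries, and evx1.S (-1.01) was 2.23 and -3.23 to 2.26. With both against control, without single libraries, cdx1.L (1.36) was -1.46 to 2.79 and evx1.L (-0.81) was -5.42 to 0.072. With both against Chordin, cdx1.L (1.33) was -1.51 to 2.13, and evx1.L (1.03) was -2.23 with run 1 alone and -3.61 to 1.89. For the interaction, cdx1.S (1.07) was -0.24 to 1.68, cdx4.S (1.18) was -0.33 to 1.84, and cdx2.S (0.22) was -1.88 to 1.1, -0.67 with limma voom and -0.35 with run 2 alone. Some of these fitted values had a group with 3 counts or fewer and depend on the prior count. They are those of evx1.S with Chordin against control, evx1.L with both against Chordin, and cdx1.S and cdx4.S in the interaction. Their sizes and signs are uncertain. The causes were not tested.

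Over all genes, Pinhead against control gave 1562 higher and 907 lower: lower 1651 without the filter, 577 with DESeq2, 589 with run 2 alone and 1619 with only the groups compared, and 471 to 2577 higher and 89 to 1911 lower without single libraries. Both against Chordin gave 1494 and 982, or 2483 and 1645 without the filter, and 472 to 2056 and 174 to 2179 without single libraries. The interaction gave 1213 and 1323, or 2338 and 2157 without the filter, 805 higher with run 1 alone, and 254 to 2169 and 273 to 2805 without single libraries. Scaling by total counts alone moved the median log2 change of all genes by 0.123 with Chordin against control, 0.143 with both against control, 0.12 with both against Pinhead and -0.101 with Pinhead against Chordin, and turned no member's direction in those comparisons.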

Other observations

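None of the few genes beside the cdx and evx1 copies that could be tested was called higher with Pinhead. All 8 members were found by symbol in the RefSeq annotation of Xenopus laevis v10.1, which was used for gene order only. Of the 16 protein-coding genes next to a member, 13 were in the count table by symbol and 3 were tested, of which hibadh.S alone was called, and lower, with Pinhead against control. The untested ones stayed at or below 1.01 CPM in every library. No gene next to a cdx2 or cdx4 copy was tested. Next to cdx1.L lies hmgxb3.L, which was not called (adjusted p = 0.276 by edgeR). Its level was 19.7 and 21.3 CPM in Pinhead explants, against 18.1 and 17.1 CPM in control explants. On the side of evx1 away from the hox cluster lies hibadh, a gene of valine breakdown: hibadh.S had 34.3 and 31.6 CPM in Pinhead explants, against 44.4 and 47.7 CPM in control explants (log2 fold change -0.48, adjusted p = 0.0255 by edgeR), and hibadh.L had 54.4 and 52.7 CPM in Pinhead explants, against 66.1 and 62.7 CPM in control explants (adjusted p = 0.0985 by edgeR). On the hox side lies hoxa13, with 0.105 and 0 CPM for hoxa13.L with Pinhead, and beside cdx2 lies the pancreas and duodenum gene pdx1, with 0 and 0.138 CPM for pdx1.L with Pinhead. The second even-skipped gene, evx2, had at most 2 counts in any library for either copy.

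The runs of a library agreed for the members with 1 exception. In library 8 cdx2.L had 233 counts in run 1 and 160 in run 2, which lies 3.48 binomial standard deviations from an even split by run depth. In the other libraries with at least 20 counts for a member the largest such deviation was 1.78.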
